A study of Homo sapiens with 12 samples.

Results

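Clone-named features are genes that carry only the name of the sequenced DNA clone in which they were annotated, such as AC020934.1, and no gene symbol of their own. Of 20218 such features among 60656 in the tables, 135 separated venetoclax-resistant from parental OCI-LY1 cells under vehicle. OCI-LY1 is a human B-cell lymphoma line of the diffuse large B-cell type, and OCI-LY1R is its derivative selected in rising venetoclax, an inhibitor of the survival protein BCL2, up to 1 µM. Each line was treated for 3 days with 1 µM decitabine, a cytidine analog that traps DNA methyltransferases, or with dimethyl sulfoxide (DMSO) as vehicle. The 12 libraries of polyadenylated RNA thus fell into resistant decitabine, parental decitabine, resistant DMSO and parental DMSO cells, 3 in each. The resistant cells are 1 derived line, and the labels do not say whether replicates were separate cultures, so p-values measure only the spread between these libraries.

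Members had a mean of at least 5 and under 300 TPM (a transcript's share of a library scaled to a fixed total, the deposited unit) over 11 libraries, all but parental decitabine replicate 3. Their 3 resistant DMSO values lay all above or all below the 3 parental DMSO values, and the group means of (TPM + 1) were at least 2-fold apart. AC025423.3 was left out by the rule. Of 1373 clone-named features in that range of level, 480 had no overlap between the lines under DMSO and 135 were also 2-fold apart, 84 of them higher and 51 lower in resistant cells. The same rule was met by 424 of all 4603 features of that level, 9.21% (5.82% higher and 3.39% lower). The members were thus chosen by their DMSO values in both lines, and that difference is given as a description, with no test. Decitabine values entered the choice through the mean level alone.

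Many genes known only by clone name are long noncoding RNAs read from the strand opposite a named gene, and others are pseudogenes, inactive copies of genes. Antisense transcripts can start at or near the promoter of the gene on the other strand. DNA methylation silences many such promoters, repeats and pseudogenes, and decitabine lowers methylation as cells divide.

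The name was found once in the GENCODE 29 annotation of GRCh38 for 122 members. Of these, 84 (68.9%) were annotated as antisense, 16 as pseudogenes, 13 as long intergenic noncoding RNAs and 2 as protein coding. Antisense genes were as frequent (69.1%) among the other clone-named features of that level. Exons of 89 members lay opposite an exon of another gene, a protein-coding gene in 80 cases. These were 73.0% and 65.6% of the members found, against 82.3% and 74.1% of the other clone-named features of that level. The members lay on nearly every chromosome. Chromosome 1 had 13 higher and 4 lower members, chromosome 3 had 6 higher and no lower ones, and chromosome 22 had 1 higher and 4 lower ones. Others were even, with 5 of each on chromosome 11 and 4 of each on chromosome 17. Shares of all features by chromosome were not computed, so no pattern by chromosome is read from these counts. A clone was shared by 17 members, in 8 clones, and the members of 7 of these clones moved the same way between the lines.

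The sequences below are stretches of annotated transcripts of members that the results turn on, read from GENCODE 29 on GRCh38, 5′ to 3′ in the direction of the transcript. Capitals mark bases that lie opposite an annotated exon of a gene on the other strand, where reads of either strand cover the same DNA. AC020934.1 (chr19:12826785-12826892, plus strand) and AL160270.1 (chr9:34521527-34521676, plus strand) have such bases, opposite RTBDN and ENHO. AC245100.7 (chr1:148358245-148358394, minus strand), AC005481.1 (chr7:157615389-157615538, plus strand), AP001021.2 (chr18:6025091-6025240, plus strand), AC019080.1 (chr2:177283805-177283954, minus strand) and the pseudogene AC114501.2 (chr7:65525629-65525778, minus strand) have none in the stretch shown.
AC020934.1: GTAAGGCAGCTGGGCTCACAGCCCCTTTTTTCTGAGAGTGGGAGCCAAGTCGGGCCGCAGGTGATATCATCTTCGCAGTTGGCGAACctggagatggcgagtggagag
AL160270.1: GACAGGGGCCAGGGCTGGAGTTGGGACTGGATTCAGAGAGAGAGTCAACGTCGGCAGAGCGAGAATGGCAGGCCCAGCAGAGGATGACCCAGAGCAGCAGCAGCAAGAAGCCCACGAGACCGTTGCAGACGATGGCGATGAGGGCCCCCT
AC245100.7: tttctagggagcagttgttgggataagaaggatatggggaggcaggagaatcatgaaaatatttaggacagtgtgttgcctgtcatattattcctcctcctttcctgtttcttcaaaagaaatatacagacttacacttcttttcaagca
AC005481.1: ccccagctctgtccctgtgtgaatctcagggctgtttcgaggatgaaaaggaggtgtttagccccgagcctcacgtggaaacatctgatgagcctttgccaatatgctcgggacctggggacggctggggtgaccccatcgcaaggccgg
AP001021.2: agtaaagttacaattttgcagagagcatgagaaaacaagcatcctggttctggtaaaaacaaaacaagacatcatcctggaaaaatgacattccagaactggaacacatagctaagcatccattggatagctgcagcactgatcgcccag
AC019080.1: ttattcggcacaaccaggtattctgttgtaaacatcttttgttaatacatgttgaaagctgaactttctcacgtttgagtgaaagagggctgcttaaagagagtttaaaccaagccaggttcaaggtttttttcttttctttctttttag
AC114501.2: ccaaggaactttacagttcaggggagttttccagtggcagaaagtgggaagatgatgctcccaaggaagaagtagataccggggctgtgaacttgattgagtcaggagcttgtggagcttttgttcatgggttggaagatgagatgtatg

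Parental decitabine replicate 3 stood apart from the other 11 libraries and from its label's other replicates. It listed 81 of the 135 members at 0 and 118 under 1 TPM, and its members summed to 144 TPM, against 3793 to 4975 TPM in the other libraries. All clone-named features together summed to 11762 TPM in replicate 3, against 381269 to 517109 TPM in the others, of 1000000 TPM in each library. Of the 88 genes that lie opposite a member by exon and are listed once, 83 were higher than the member in replicate 3, against 24 in the mean of the other 11. The B-cell marker CD79A, part of the B-cell receptor, reached 1491 TPM in replicate 3, against 3.39 to 8.74 TPM elsewhere. The 7 B-cell markers summed to 2951 TPM in replicate 3 and to 30.0 to 191 TPM in the others, while CD3D and CD2 of T cells were at 0 in every library. Replicate 3 was therefore left out of the main values, which then rest on 2 parental decitabine libraries. Values with it are given for the sets of members and for some single members, not for each. The part of strand in these values was not tested, nor was which of these libraries give the RNA levels of the cells.

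**Figure D1:**
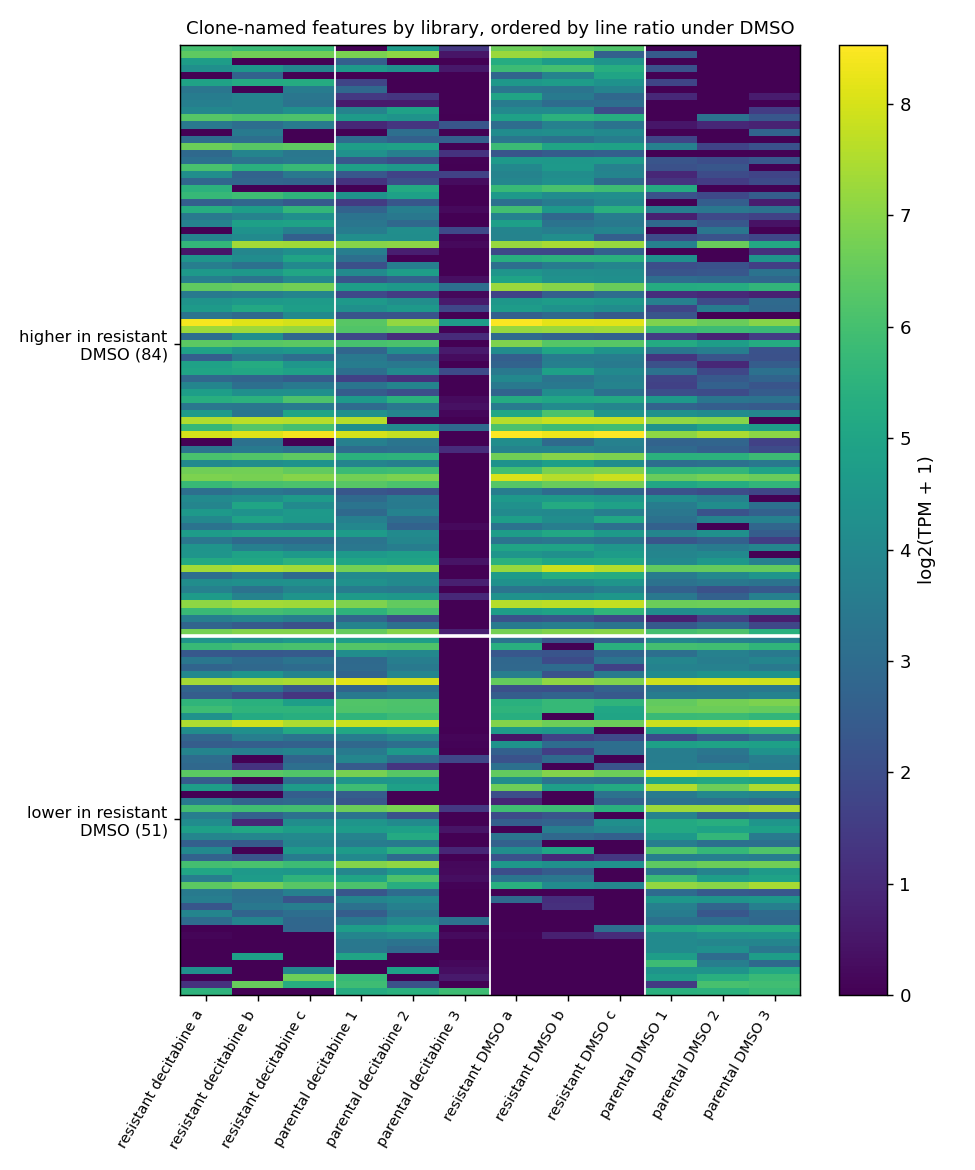
Each row is 1 of the 135 members, ordered from highest to lowest resistant to parental ratio under DMSO, and each column is 1 library; colour gives log2(TPM + 1). The 84 members above the white line were chosen as higher and the 51 below it as lower in resistant DMSO; parental decitabine replicate 3 is dark for 118 members under 1 TPM.

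The members with the largest DMSO ratios were listed at or near 0 in one line. AC114501.2 had 97.9, 84.4 and 72.0 TPM in resistant DMSO libraries and 0 in all 3 parental DMSO libraries. Every 31-base word of its transcript recurs in transcripts elsewhere, most of all in INTS4P1, a pseudogene of an Integrator subunit gene, so its reads cannot be assigned to it with certainty. The same holds for 97.2% of the words of AC114501.1, which had 358, 292 and 282 TPM in resistant DMSO libraries, against 117, 94.2 and 124 TPM in parental ones. AL603910.1, opposite MTO1, a mitochondrial tRNA-modifying enzyme, had 56.5, 63.5 and 39.1 TPM in resistant DMSO libraries, against 3.41, 0 and 0 TPM in parental ones. AP000311.1, annotated as protein coding and sharing exons with the ATP synthase subunit gene ATP5PO, had 151, 138 and 5.25 TPM in resistant DMSO libraries, against 4.31, 0 and 0 TPM in parental ones. Its resistant value of 5.25 TPM lay close to the highest parental value. Of the other members among the 8 largest ratios, AL513523.3 (opposite the Integrator gene INTS3), AL078612.1 (opposite RCN1) and AC099677.3 were at 0 in every parental DMSO library, and AC245100.3 and AC110285.4 (opposite BAHCC1) were at 0 in at least 1 of them. AL078612.1 shared 74.2% of its words with transcripts elsewhere.

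The 8 smallest ratios belonged to members listed at 0 in all 3 resistant DMSO libraries. AC018638.5, a processed pseudogene, had 42.0, 42.6 and 53.0 TPM in parental DMSO libraries, and 51.2% of its words recur elsewhere. AC004596.1, opposite UBTF, a transcription factor of RNA polymerase I, had 1.76, 64.8 and 59.6 TPM in parental DMSO libraries. AP002433.2, opposite ACAT1, a mitochondrial acetyl-CoA acetyltransferase, had 56.0, 11.7 and 6.53 TPM in parental DMSO libraries and 0 in the 5 decitabine libraries used. The rest of this group were AC000068.2 (opposite UFD1, of the ubiquitin pathway), AL358781.2 (opposite POMT1, an O-mannosyltransferase), AL139095.4 (opposite SSR1), AC003092.2 and AP001021.2. Values at 0 were common: 52 members had at least 1 of the 6 DMSO libraries at 0, and 17 of these had a whole DMSO group at 0. Just inside the 2-fold limit lay AP003031.3, AC234917.2 and AC084782.1, with log2 ratios of -1.0003, -1.01 and -1.01. Just outside it lay AL355816.2, AC127459.3 and AC012640.4, with log2 ratios of 0.98, 0.99 and 0.98.

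Whether the lines also differed under decitabine was compared in 5 libraries. These entered the rule only through the mean level, not through the separation of the lines. For a member listed low in one line, high decitabine values in the other line helped it reach that level. Its gap under decitabine is thus in part fixed by the choice. The 84 members chosen as higher summed to 3376, 3554 and 3611 TPM in resistant decitabine libraries, against 2284 and 2268 TPM in parental ones. Under DMSO they summed to 4028, 4060 and 3772 TPM in resistant cells, against 1429, 1483 and 1221 TPM in parental cells. The 51 members chosen as lower summed to 1223, 1301 and 1365 TPM in resistant decitabine libraries, against 1869 and 1781 TPM in parental ones. Under DMSO they summed to 880, 736 and 708 TPM in resistant cells, against 2421, 2326 and 2571 TPM in parental cells. In these libraries the lines did not overlap in either set under decitabine and lay closer together than under DMSO. Under DMSO the rule itself excludes an overlap of these sums. Parental decitabine replicate 3 summed to 70.4 TPM over the higher and 73.1 TPM over the lower members, below every resistant library in both sets. The DMSO gap was chosen to be large, so a smaller gap in other libraries is in part fixed by that choice.

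**Figure D2:**
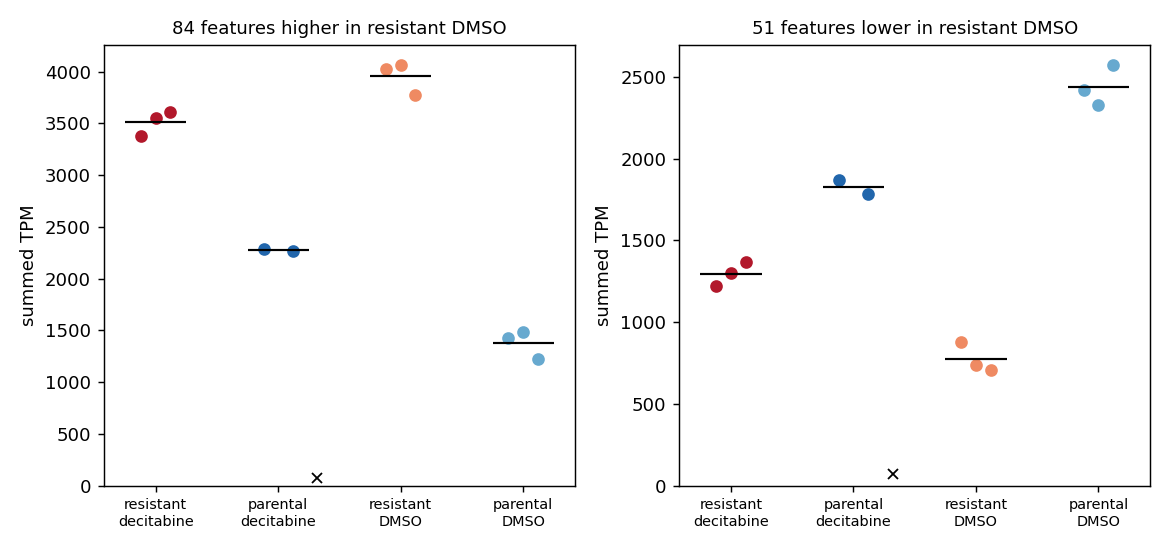
Summed TPM of the members chosen as higher (left) and lower (right) in resistant DMSO, 1 point a library, with bars at the group means; crosses mark parental decitabine replicate 3, which is in no mean. Resistant decitabine sums of 3376 to 3611 TPM lie above the parental 2268 and 2284 TPM on the left, and 1223 to 1365 TPM lie below 1781 and 1869 TPM on the right.

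The median log2 ratio of resistant over parental group means of the 84 higher members was 0.65 under decitabine and 1.44 under DMSO. That of the 51 lower members was -0.43 under decitabine and -1.61 under DMSO. The ratio was closer to 0 under decitabine in 117 of 135 members, its sign had turned in 31, and 46 were still at least 2-fold apart in the direction seen under DMSO. By order of the libraries, 47 of the 84 higher members were again higher in all 3 resistant decitabine libraries, 5 were lower and 32 overlapped. Over all 9029 features tested, 19.5% were higher and 12.4% lower in resistant decitabine libraries without overlap. Of the 51 lower members, 20 were again lower, 3 were higher and 28 overlapped. The median log2 fold change was 0.67 over the 84 higher members and -0.56 over the 50 lower members tested, against 0.10 over all features tested. Including parental decitabine replicate 3, these medians were 1.86, 0.89 and -0.67, so that the direction of the lower members turned, and 1 of the 51 lower members was still lower without overlap.

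**Figure D3:**
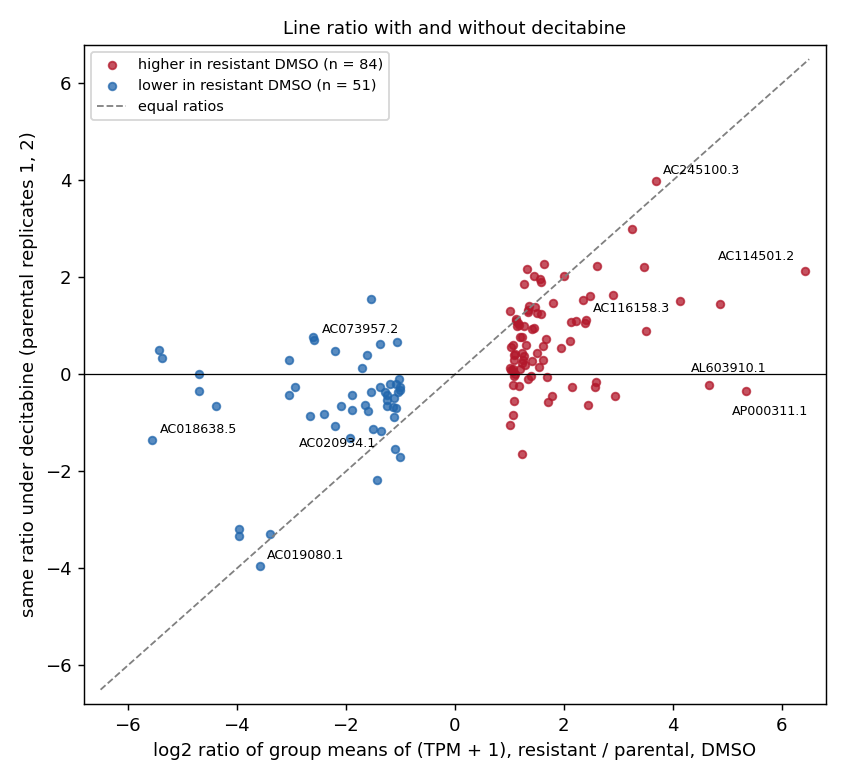
Log2 ratio of group means of (TPM + 1), resistant over parental, under DMSO (x axis, the values that chose the members) and under decitabine (y axis), 1 point a member; the dashed line marks equal ratios. Most points lie nearer to 0 on the y axis than on the x axis, 117 of 135, and 31 lie across the horizontal line.

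With limma on log2(TPM + 1) and Benjamini-Hochberg adjustment over all features, 6 of 134 members tested passed an adjusted p under 0.05 between the lines under decitabine, against 0.831% of all features tested (0.509% higher and 0.321% lower). Of the 1227 other clone-named features of that level, 2 were higher and 2 lower. Of the 6, 4 were higher and 2 lower in resistant cells, against 3 higher and 3 lower with quantile scaling. Each of the 6 had the direction it had under DMSO. All 6 calls were lost when any 1 of the 5 libraries was left out. With parental decitabine replicate 3 included, limma called none of the members, with 19 at an unadjusted p under 0.05, and none of the 14326 features tested, with 285 at an unadjusted p under 0.05.

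Of the 4 higher members, 2 lie opposite exons of a named gene. AC022966.1 (chr17:78855478-78855844, plus strand), which lies wholly opposite an exon of TIMP2, an inhibitor of matrix metalloproteinases, had 96.3, 78.3 and 84.1 TPM in resistant decitabine libraries, against 26.6 and 28.5 TPM in parental ones. On the log2 scale this was 1.61 higher (SE 0.16; adjusted p = 0.0338 by limma). TIMP2 itself was at 0 in all 5 of these libraries and at 1.72 TPM in parental decitabine replicate 3. AL160270.1 (chr9:34521527-34524241, plus strand), opposite ENHO, which encodes the peptide hormone adropin, had 76.3, 67.5 and 69.3 TPM in resistant decitabine libraries, against 24.0 and 19.9 TPM in parental ones, with a log2 fold change of 1.65 (SE 0.17, limma adjusted p = 0.0341). ENHO was at 0 in the same 5 libraries and at 2.83 TPM in parental decitabine replicate 3.

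AC245100.7 (chr1:148358245-148358686, minus strand), a long intergenic noncoding RNA, had 86.8, 91.8 and 105 TPM in resistant decitabine libraries, against 26.4 and 22.6 TPM in parental ones, with a log2 fold change of 1.90 (SE 0.17, limma adjusted p = 0.0242). Under DMSO it had 151, 126 and 93.8 TPM in resistant cells, against 36.7, 37.8 and 48.2 TPM in parental cells, a gap that the rule required. Both other members of that clone, the pseudogenes AC245100.3 and AC245100.2, were also higher in every resistant decitabine library. AC245100.3 had 28.9, 35.8 and 37.0 TPM in resistant decitabine libraries, against 2.41 and 0 TPM in parental ones. AC245100.2 had 39.2, 25.6 and 49.0 TPM in resistant decitabine libraries, against 5.51 and 11.6 TPM in parental ones, and 41.1% of its words recur elsewhere. AC005481.1 (chr7:157614023-157618765, plus strand), inside the span of PTPRN2, a receptor-type phosphatase gene on the other strand, had 11.9, 13.1 and 8.84 TPM in resistant decitabine libraries, against 0.542 and 0.544 TPM in parental ones (log2 fold change 2.98, SE 0.31, limma adjusted p = 0.0372). It was at 0 in all 3 parental DMSO libraries.

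The 2 members lower in resistant cells under decitabine were listed near or at 0 there. AC019080.1 (chr2:177283508-177392691, minus strand) overlaps, on the same strand, NFE2L2, which encodes the oxidative stress regulator NRF2. It had 0.0749, 0 and 0 TPM in resistant decitabine libraries, against 13.6 and 16.2 TPM in parental ones (log2 fold change -3.95, SE 0.34, limma adjusted p = 0.0236). AP001021.2 (chr18:6025091-6082455, plus strand), inside the span of L3MBTL4 on the other strand, was at 0 in all 6 resistant libraries. It had 9.78 and 8.45 TPM in parental decitabine libraries and 16.0, 14.1 and 13.7 TPM in parental DMSO ones (limma adjusted p = 0.0391 under decitabine). Those parental decitabine values also counted towards the mean level that the rule asked for. The call of AP001021.2 is thus in part fixed by the choice. AL132708.1, chosen here after its values were seen, lies opposite SERPINA9, a serpin of germinal-centre B cells. It had 0, 0 and 6.09 TPM in resistant decitabine libraries, against 26.6 and 30.6 TPM in parental ones, and 0, 0 and 7.64 TPM in resistant DMSO libraries, against 32.4, 37.9 and 38.1 TPM in parental ones.

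**Figure D4:**
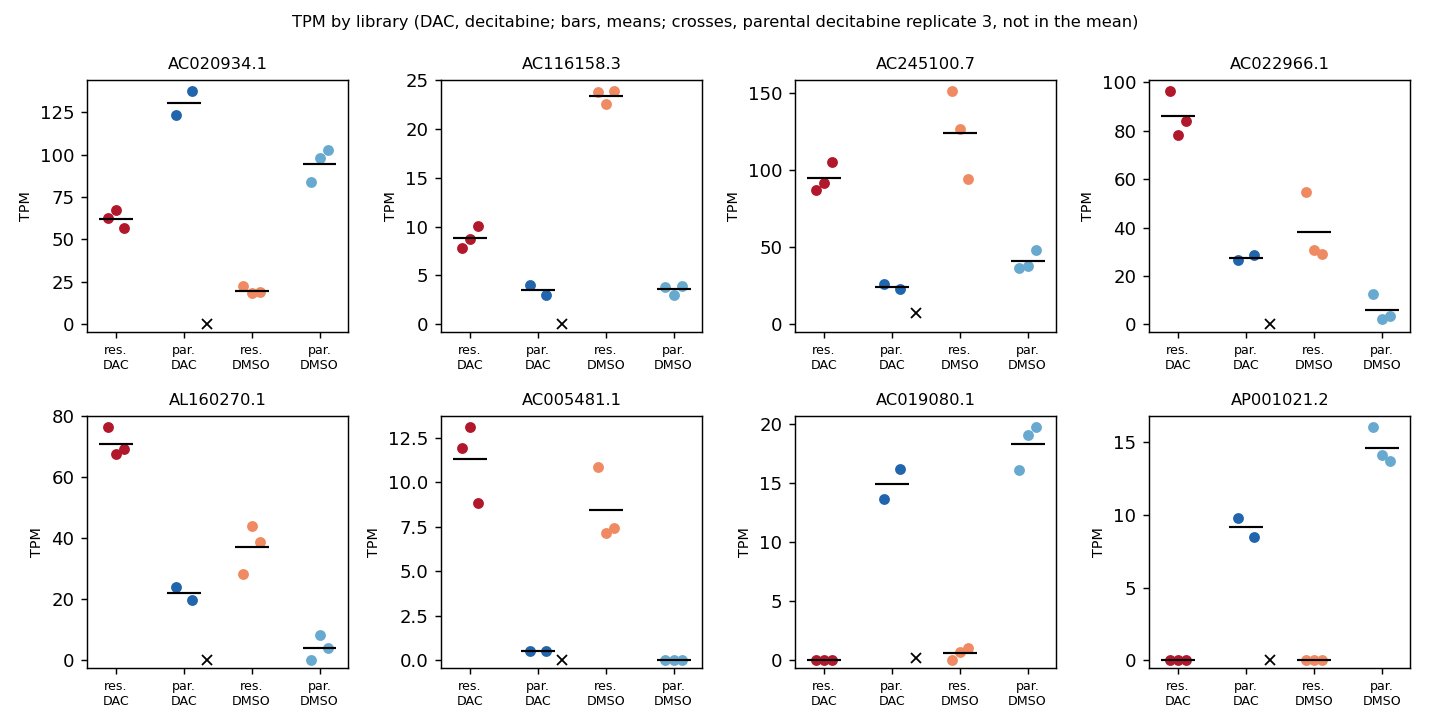
TPM by library of AC020934.1, AC116158.3 and the 6 members that passed the test between the lines under decitabine; points are libraries, bars are group means, and crosses mark parental decitabine replicate 3, which is in no mean. AC245100.7, AC022966.1, AL160270.1 and AC005481.1 are higher and AC019080.1 and AP001021.2 lower in resistant cells under decitabine. Under DMSO the rule that chose them required a gap.

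In resistant cells, the members chosen as lower tended to be higher after decitabine. Without overlap between decitabine and DMSO, 21 of the 51 lower members were higher and 4 lower after decitabine, against 19.8% higher and 8.58% lower over all 8579 features tested. Of the 84 higher members, 16 were higher and 21 lower. The median log2 fold change was 1.37 over the 47 lower members tested and -0.08 over the 84 higher members, against 0.21 over all features tested. With quantile scaling they were 1.03, -0.21 and -0.055. The resistant DMSO libraries that form the reference here also chose the members, as low values in the 51 and as high values in the 84, so these directions are in part fixed by the choice. Limma called 12 of 131 members tested, 8 higher and 4 lower after decitabine, against 3.59% of all features tested (2.83% higher and 0.758% lower). Among the 1234 other clone-named features of that level, 32 were called higher and 11 lower.

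AC020934.1 (chr19:12825711-12832983, plus strand), opposite exons of RTBDN, a retinal riboflavin-binding protein gene, rose in resistant cells. It had 62.4, 67.2 and 56.9 TPM in resistant decitabine libraries, against 22.5, 18.3 and 18.9 TPM in resistant DMSO ones, with a log2 fold change of 1.60 (SE 0.16, limma adjusted p = 0.0117). It passed under every alternative tried. In parental cells it had 123 and 137 TPM with decitabine, against 83.8, 97.7 and 103 TPM with DMSO, and did not pass the test. RTBDN was at 0 in 9 of the 11 libraries and at 19.1 TPM in parental decitabine replicate 3, where AC020934.1 was at 0.13 TPM.

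AC116158.3, not found in GENCODE 29, fell in resistant cells. It had 7.78, 8.69 and 10.03 TPM in resistant decitabine libraries, against 23.8, 22.5 and 23.8 TPM in resistant DMSO ones, with a log2 fold change of -1.32 (SE 0.19, limma adjusted p = 0.0288). This call was lost when any 1 of the 6 libraries was left out. In parental cells it had 4.01 and 2.99 TPM with decitabine, against 3.81, 3.03 and 3.94 TPM with DMSO. AC116158.1, of the same clone and opposite RASGRP1, an activator of Ras in lymphocytes, had 6.06, 6.11 and 5.80 TPM in resistant decitabine libraries, against 14.0, 18.4 and 6.76 TPM in resistant DMSO ones. RASGRP1 itself had 7.04, 7.63 and 7.13 TPM in resistant decitabine libraries, against 14.7, 30.8 and 22.0 TPM in resistant DMSO ones (limma adjusted p = 0.0664).

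AC010761.3, AC090607.4 and AC010326.4 were listed at 0 in every resistant DMSO library and were detected in every resistant decitabine library. Their decitabine values counted towards the mean level that the rule asked for, so their rise is in part fixed by the choice. AC010761.3 (opposite SUPT6H, a transcription elongation factor) had 10.1, 7.65 and 12.2 TPM in resistant decitabine libraries, above the 6.84, 4.30 and 4.03 TPM of parental DMSO libraries (limma adjusted p = 0.00855). It passed under all 10 alternatives in which it was tested. AC090607.4 (wholly opposite DNAJA4, a heat shock co-chaperone) had 13.6, 5.80 and 7.48 TPM in resistant decitabine libraries (limma adjusted p = 0.0189). AC010326.4, a transcribed pseudogene inside the span of ZNF814, had 7.15, 13.5 and 6.17 TPM there (limma adjusted p = 0.0171). AC090607.4 and AC010326.4 each lost their call in 3 of the 6 fits that left out 1 library.

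The other 7 calls in resistant cells went both ways. AL713998.3, AL713998.4, AC244517.5 (opposite the protocadherin gene PCDHB2) and AP003031.3 rose, with log2 fold changes of 1.64, 1.38, 1.65 and 1.71. AC112907.2, a pseudogene, had 7.37, 11.3 and 6.61 TPM in resistant decitabine libraries, against 24.7, 38.5 and 37.2 TPM in resistant DMSO ones, and fell by 1.88 on the log2 scale. AC023510.2 (opposite LRMP, a membrane protein gene of germinal-centre B cells) had 115, 110 and 127 TPM in resistant decitabine libraries, against 262, 190 and 229 TPM in resistant DMSO ones. AL603910.1 had 17.8, 21.7 and 13.3 TPM in resistant decitabine libraries, against 56.5, 63.5 and 39.1 TPM in resistant DMSO ones, and fell by 1.53 on the log2 scale (limma adjusted p = 0.0460). Each of these 7 lost its call when resistant decitabine a, b or c was left out.

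In parental cells the pattern of order was the other way round. Of the 84 higher members, 42 were higher and 4 lower in both parental decitabine libraries without overlap with DMSO, against 27.9% higher and 11.6% lower over all 8122 features tested. Of the 51 lower members, 7 were higher and 21 lower. The median log2 fold change was 0.90 over the 79 higher members tested and -0.33 over the 51 lower members, against 0.21 over all features tested. With quantile scaling they were 0.67, -0.57 and -0.025. Including parental decitabine replicate 3, they were -0.050, -1.81 and 1.01, so that the direction of the higher members turned. Of the 79 higher members tested, 2 were then higher without overlap, against 40 without that library. Here too the parental DMSO libraries chose the members, which in part fixes these directions. Limma called 5 of 130 members tested, 3 higher and 2 lower after decitabine, against 1.86% of all features tested (1.38% higher and 0.48% lower). Among the 1230 other clone-named features of that level, 19 were called higher and 8 lower. With parental decitabine replicate 3 included, limma called none of the members, with 8 at an unadjusted p under 0.05. A fit with the replicate number as a block also called none, with 29 at an unadjusted p under 0.05.

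AL713998.4 was called in both lines. It had 19.8 and 27.9 TPM in parental decitabine libraries, against 3.47, 2.71 and 4.72 TPM in parental DMSO ones (log2 fold change 2.43, SE 0.31, limma adjusted p = 0.0454). In resistant cells it had 51.5, 58.0 and 46.1 TPM with decitabine, against 23.7, 16.9 and 17.5 TPM with DMSO. AC138207.9 was at 18.8 and 12.3 TPM in parental decitabine libraries and at 0 in all 3 parental DMSO libraries (limma adjusted p = 0.0208). Its decitabine values also counted towards the mean level of the rule. AC020659.1 (opposite SPTBN5, a spectrin) had 17.6 and 17.2 TPM in parental decitabine libraries, against 2.87, 3.55 and 2.55 TPM in parental DMSO ones (limma adjusted p = 0.0342).

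The 2 members that fell in parental cells lie opposite LRRC32 and MXI1. AP001189.1 (chr11:76657056-76663866, plus strand), opposite LRRC32, which presents latent TGF-beta at the cell surface, had 6.37 and 7.73 TPM in parental decitabine libraries, against 27.9, 29.7 and 28.1 TPM in parental DMSO ones (log2 fold change -1.88, SE 0.17, limma adjusted p = 0.0284). In resistant cells it had 4.71, 4.99 and 5.28 TPM with decitabine, against 19.8, 7.14 and 7.44 TPM with DMSO. AL360182.2 (chr10:110207850-110208591, minus strand), opposite MXI1, an antagonist of MYC, had 110 and 79.1 TPM in parental decitabine libraries, against 274, 246 and 287 TPM in parental DMSO ones (log2 fold change -1.51, SE 0.18, limma adjusted p = 0.0389). Both lines were then within 73.9 to 110 TPM for AL360182.2 under decitabine. Each of the 5 parental calls was lost when parental DMSO 1, 2 or 3 was left out.

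**Figure D5:**
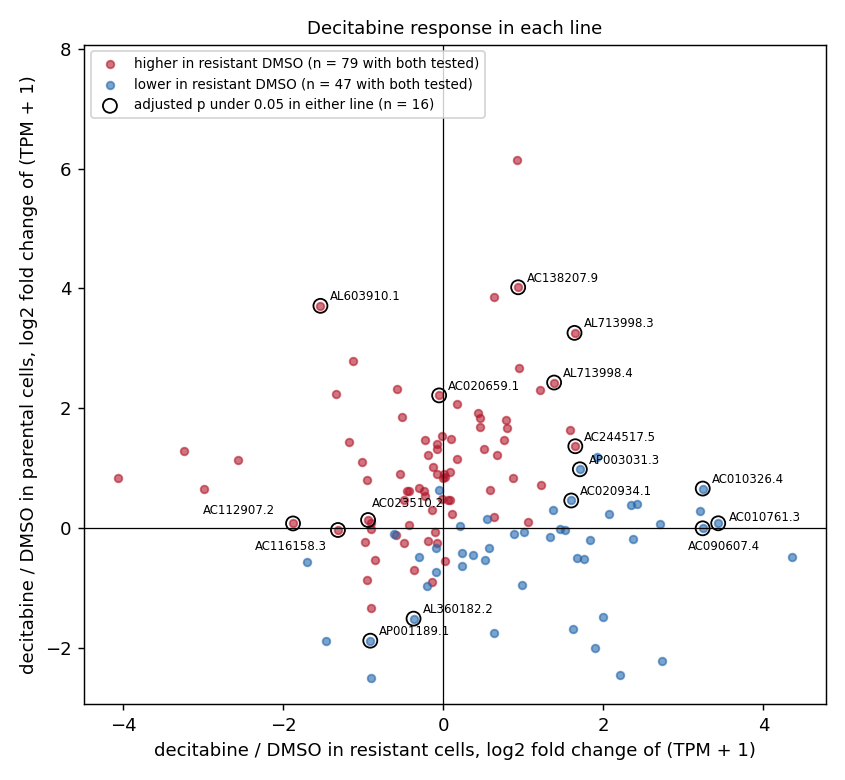
Log2 fold change of decitabine over DMSO in resistant cells (x axis) and in parental cells (y axis, replicates 1 and 2), 1 point for each of the 126 members tested in both lines; circles mark 16 members with an adjusted p under 0.05 in either line. Members chosen as higher (red) lie mostly above 0 on the y axis, and members chosen as lower (blue) mostly to the right of 0 on the x axis.

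By order without overlap, 16 members were higher and 6 lower after decitabine in both lines, and 9 were ordered in opposite directions, with parental decitabine replicate 3 left out. Over the 7359 features tested in both lines, 9.88% were higher and 3.41% lower in both. Of these 9, 6 were lower in resistant and higher in parental cells, AL603910.1 among them, and 3 were higher in resistant and lower in parental cells, against 1.41% and 0.639% of those features. AC073957.2, one of these 3 and named after its values were seen, lies opposite GPR146, a receptor gene. It had 83.2, 103 and 79.1 TPM with decitabine, against 41.0, 16.6 and 13.9 TPM with DMSO, in resistant cells. In parental cells it had 68.1 and 39.3 TPM with decitabine, against 141, 130 and 171 TPM with DMSO. The difference of the responses contains the DMSO difference that chose the members and was not tested.

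Between the lines under decitabine, limma called none of the genes opposite the members in 63 pairs with both tested, against 0.831% of all features. In parental cells it called none in 56 such pairs, against 1.86% of all features. In resistant cells it called 2 in 57 pairs, against 3.59% of all features, a share near that of all features. The 2 were RIPOR1 (opposite AC027682.5) and TBC1D14 (opposite AC097382.2), both higher after decitabine (limma adjusted p = 0.0460 and 0.0338). TBC1D14 was low, at 2.66, 3.44 and 3.04 TPM in resistant decitabine libraries and 0 in every resistant DMSO library. The members opposite RIPOR1 and TBC1D14 were not called (limma adjusted p = 0.970 for each). The median log2 fold change in resistant cells was 0.30 over the opposite genes of these pairs and 0.06 over their members. ACAT1, whose opposite member AP002433.2 was too low to be tested, had 61.6, 74.2 and 56.9 TPM in resistant decitabine libraries, against 0, 3.61 and 0 TPM in resistant DMSO ones (log2 fold change 5.28, SE 0.64, limma adjusted p = 0.0195). How the calls of RIPOR1, TBC1D14 and ACAT1 hold with a library left out is not given here.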

How the data were processed

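RNA of 12 libraries was analysed. Per the labels' protocols, libraries were stranded and made from polyadenylated RNA; per the submitters' processing notes HISAT2, StringTie, DESeq2 and build hg38 were used, while for versions, strand setting and annotation release none is given in the sources used here. As deposited by the authors, values are TPM, scaled within each library to a sum of 1000000; headers name no unit, and this sum is the ground for it. Depth is unknown, so no counting interval is given. The tables of both lines were joined by row, and their names agreed in every row. Names were used since identifiers in the parental table did not match names. Tests and shares over all features kept the 59490 names that occur once and dropped 1166 features with repeated names. The member rule and the totals of 60656 and 20218 features used all rows. Resistant columns could be matched to groups only and are lettered a to c.

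Comparisons used R 4.3.3 and limma-trend (version 3.58.1) fitted to log2(TPM + 1) values of features averaging 1 TPM or more, with Benjamini-Hochberg adjusted p under 0.05 over all features. Fold changes are on that scale and understate changes of low features. Resistant against parental decitabine libraries and decitabine against DMSO in each line were fitted separately. The tests were tried on simulated data, but the outcome is not given here, so no accuracy is claimed from that trial. Positions and strands came from GENCODE 29 by name, and words of 31 bases were compared with its other transcripts.

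Named were AC020934.1 and AC116158.3, the 8 largest and 8 smallest ratios, called members (up to 12 per comparison), 3 members on each side of the 2-fold limit, and genes opposite them; others are marked. Members, lists and tests were chosen with earlier results of these data known. Alternatives were a pseudocount of 0.1, no filter, a filter at 5 TPM, quantile and median-ratio scaling, a model of 4 group means, replicate 3 included, a replicate block, other limits of the rule, and leaving out each library.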

Additional observations from a re-analysis of the deposited data

Results flagged for a closer look

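With parental decitabine replicate 3 left out, every library of AL603910.1 moved one way in resistant and the other way in parental cells: decitabine was lower than DMSO in resistant cells (log2 fold change -1.53) and higher in parental cells (log2 fold change 3.71). AC012640.4, just outside the 2-fold limit, showed the same order, with log2 fold changes of -0.42 in resistant and 0.58 in parental cells. In replicate 3, AC012640.4 was at 0 TPM and AL603910.1 at 0.474 TPM, so with that library neither order held in parental cells. Neither difference between the lines was tested.

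In parental decitabine replicate 3, which enters no main comparison, 5 named members lay above every parental DMSO library. AC018638.5 was at 57.5 TPM, against at most 53.0 TPM in parental DMSO libraries, and AC010326.4 was at 8.26 TPM, against at most 7.97 TPM. AC114501.2 was at 1.59 TPM, AC138207.9 at 1.40 TPM and AC005481.1 at 0.0261 TPM, each against 0 in all 3 parental DMSO libraries.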

How the results depend on the processing

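With parental decitabine replicate 3 included, the median log2 fold change turned to 0.89, against -0.56, over the lower members between the lines and to -0.050, against 0.90, over the higher members in parental cells. It was then 1.86 over the higher members between the lines and -1.81 over the lower members in parental cells. Between the lines, the higher members' median was 0.60 at a mean of at least 5 TPM, 0.55 with quantile and 0.58 with median-ratio scaling. In resistant cells it was -0.21 with either scaling, and the lower members' median was 1.03 with quantile scaling and 1.64 with a pseudocount of 0.1. In parental cells the higher members' median was 1.13 with that pseudocount, 0.84 without a filter, 0.67 with quantile scaling, 0.71 with median-ratio scaling and 0.75 with the replicate block, and the lower members' median was -0.57 with quantile and -0.51 with median-ratio scaling. Without 1 library these medians were 0.55 to 0.73 and -0.61 to -0.40 between the lines, -0.12 to -0.057 and 0.95 to 1.48 in resistant cells, and 0.75 to 0.98 and -0.38 to -0.20 in parental cells (higher members before lower ones); the last was -0.20 without parental decitabine 1. No called member reversed. The rule gave 302 members at 1.5-fold, 60 at 3-fold and 84 at a mean of at least 10 TPM. Without a filter on low values, limma called 21, 73 and 35 features between the lines under decitabine, in resistant cells and in parental cells, and 0 (52 at an unadjusted p under 0.05), 2 and 0 (50 unadjusted) members. A mean of at least 5 TPM gave 3 members between the lines and 194 features in resistant cells, and quantile scaling gave 196 features there. The model of 4 group means called 155 features and 15 members between the lines. With parental decitabine replicate 3 included, limma called 0 features (285 unadjusted) and 0 members (19) between the lines, 0 features (262) and 0 members (8) in parental cells, and 1 of the 51 lower members was lower without overlap under decitabine. Leaving out 1 library gave 0 to 17 features and 0 to 1 members between the lines, 90 to 197 features and 3 to 9 members in resistant cells, 14 to 264 features and 0 to 5 members in parental cells, and, without overlap under decitabine, 49 to 55 higher and 21 to 31 lower members in the same order. In parental cells with a replicate block, limma called 0 features (978 unadjusted) and 0 members (29). Deviations of same-numbered libraries correlated at -0.01 in each of the 2 pairs. The 2 decitabine libraries deviate from their mean by equal and opposite amounts, so the pairs are not separate checks. Whether the numbers pair the libraries was thus left undecided. No paired analysis was possible for the resistant cells because their columns could be matched to groups only. Over the called members, 27 of their log2 fold changes kept the call and 100 lost it when 1 library was left out, and 78 kept and 55 lost it under the other alternatives. Causes were not tested. The small groups, 2 libraries for parental decitabine, and the unknown depth limit these calls.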

Other observations

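AP004609.1, named after its values were seen and inside the span of CXCR5 (a chemokine receptor that guides B cells to follicles) on the other strand, had 15.5, 17.8 and 19.5 TPM in resistant decitabine libraries, against 13.4 and 11.8 TPM in parental ones. Under DMSO it had 19.3, 27.1 and 17.0 TPM in resistant cells, against 7.39, 8.15 and 9.72 TPM in parental cells. CXCR5 itself had 123, 136 and 109 TPM in resistant decitabine libraries, against 74.3 and 86.8 TPM in parental ones (log2 fold change 0.60, limma adjusted p = 0.259), without overlap; parental decitabine replicate 3 had 114 TPM. Under DMSO it had 93.0, 111 and 91.5 TPM in resistant cells, against 83.2, 92.9 and 91.2 TPM in parental cells, and its groups overlapped.

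In the clone AL357033, AL357033.3 had 13.0, 17.0 and 13.5 TPM in resistant DMSO libraries, against 0.911, 2.82 and 2.33 TPM in parental ones, and AL357033.4 had 7.28, 12.4 and 8.48 TPM, against 0.420, 0.929 and 0.774 TPM. Under decitabine AL357033.4 had 9.84, 7.44 and 10.8 TPM in resistant cells, against 0.917 and 1.48 TPM in parental cells. AC009065 was the clone with members on both sides: AC009065.8 was chosen as higher and AC009065.6, opposite PKD1, as lower in resistant DMSO, and 25.9% and 43.7% of their words recur elsewhere.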
